A study of Homo sapiens with 8 samples.

Results

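The genes described here are 10 that encode sensors of double-stranded RNA or proteins that act directly with them: DDX58, IFIH1, DHX58, TLR3, EIF2AK2, MAVS, OAS1, OAS2, OAS3 and OASL. They were chosen by symbol from a table of 21510 genes, with earlier results of these data known. All 10 passed the filter on low values that 12567 genes passed. The table gives RPKM (reads per kilobase of transcript, scaled to the mapped reads of each library) in 8 libraries of polyadenylated RNA from N/TERT-2G, a human keratinocyte line immortalised with telomerase. All 8 libraries, controls included, came from cells that carry a short hairpin RNA against AREG (amphiregulin, a ligand of the EGF receptor) which tetracycline switches on. Subconfluent cells in serum-free keratinocyte medium with 0.4 mM CaCl2 were kept for 60 h without tetracycline (control, n = 3), with 1 µg/ml tetracycline (Tet, n = 3), or with 1 µg/ml tetracycline and 20 ng/ml EGF, another ligand of that receptor (Tet+EGF, n = 2).

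Every library made with tetracycline also made a hairpin, which is itself a double-stranded RNA, and no group had tetracycline without it, so tetracycline, the hairpin and the loss of AREG cannot be told apart in the Tet comparison. AREG was at 189 to 316 RPKM in the control libraries and at 6.63 to 20.9 RPKM in the libraries with tetracycline. The labels put the libraries in 2 batches: control and Tet replicates 2 and 3 were in batch 1, and control replicate 1, Tet replicate 1 and both Tet+EGF libraries were in batch 2. Nothing in the labels tells if the replicates of a group are separate cultures, and p-values therefore cover the spread among these libraries alone. All 9 keratinocyte markers listed for a check of the label were tested, and summed to between 16660 and 33110 RPKM over the 8 libraries.

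Double-stranded RNA is seen by cells as a sign of virus. RIG-I (from DDX58) and MDA5 (IFIH1) bind it in the cytosol and signal through MAVS, an adaptor on mitochondria, to induce interferon. LGP2 (DHX58) is their relative without the signalling domain, and TLR3 senses the same kind of RNA in endosomes. PKR (EIF2AK2) answers it by phosphorylating eIF2alpha, which slows translation, and the OAS enzymes answer it by making linked oligoadenylates, a signal that leads to RNA cleavage. OASL is an OAS relative without that enzyme activity. Keratinocytes express several of these sensors, and most of the genes are themselves induced by interferon through a factor that contains STAT2 and IRF9 and binds an element called the ISRE.

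Promoters are shown because OAS1 and OAS3, neighbours on chromosome 12 that encode related enzymes, moved in opposite directions with tetracycline. RefSeq promoters of GRCh38.p14, 250 bases before to 50 after the start site, were matched for 7 of the 10 genes, and not for DHX58, OAS2 and OASL. Each was searched on both strands for an ISRE core (GAAA, any 2 bases, then GAAA) and a shorter IRF element (AANNGAAA); every ISRE core contains an IRF element. In the OAS1 promoter (chr12:112906712-112907011, plus strand) capitals mark the IRF element, since it held no ISRE core of that spacing. Its IRF element nearer the start site lies in the run GAAACGAAA, where fewer bases part the GAAA repeats. The search does not count that run as an ISRE core. In the OAS3 promoter (chr12:112938224-112938523, plus strand) they mark the ISRE core.
OAS1: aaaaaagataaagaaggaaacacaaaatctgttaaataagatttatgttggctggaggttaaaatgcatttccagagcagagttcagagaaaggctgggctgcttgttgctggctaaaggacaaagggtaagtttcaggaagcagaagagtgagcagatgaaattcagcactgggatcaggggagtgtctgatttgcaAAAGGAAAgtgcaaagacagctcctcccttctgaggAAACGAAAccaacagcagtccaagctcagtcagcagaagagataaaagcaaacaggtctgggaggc
OAS3: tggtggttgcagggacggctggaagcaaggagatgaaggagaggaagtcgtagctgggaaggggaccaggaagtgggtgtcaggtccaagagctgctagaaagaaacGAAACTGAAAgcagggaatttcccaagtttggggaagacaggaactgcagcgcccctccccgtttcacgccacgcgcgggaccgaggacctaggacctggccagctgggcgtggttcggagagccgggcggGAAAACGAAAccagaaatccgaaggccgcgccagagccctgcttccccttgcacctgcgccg

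The OAS3 promoter held 2 ISRE cores, which began 143 and 12 bases before the start site, and 3 IRF elements. The OAS1 promoter held 2 IRF elements, which began 52 and 16 bases before the start site. A stretch of 60 bases around the first match is shown for 4 of the sensors, with the ISRE core in capitals for IFIH1 (chr2:162318809-162318868, minus strand), TLR3 (chr4:186069127-186069186, plus strand) and EIF2AK2 (chr2:37156952-37157011, minus strand), and with the IRF element in capitals for DDX58 (chr9:32526364-32526423, minus strand).
IFIH1: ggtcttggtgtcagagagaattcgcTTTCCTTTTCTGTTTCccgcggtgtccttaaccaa
TLR3: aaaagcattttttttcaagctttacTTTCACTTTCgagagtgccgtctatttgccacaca
EIF2AK2: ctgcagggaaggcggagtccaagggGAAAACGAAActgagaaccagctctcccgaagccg
DDX58: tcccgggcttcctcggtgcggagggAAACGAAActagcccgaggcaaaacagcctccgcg

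In all, 4 of the 7 promoters held an ISRE core, against 3.57% of 35116 promoters in the table, and 6 of the 7 held an IRF element, against 22.8%. IFIH1 held 3 ISRE cores, TLR3 and EIF2AK2 held 1 each, and the MAVS promoter held neither motif. Both promoters shown whole held an IRF element, while the genes behind them moved in opposite directions. A match is a run of letters and not a measured binding site.

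The 3′ UTRs were searched for 7-letter words CCAAGTC and CAAGTCA, which came from an earlier scan of these same data for words common among genes that fell with tetracycline, so they are no independent evidence. The sequence of the hairpin itself was not used here. Among 18183 genes for which GENCODE annotates 100 or more bases of 3′ UTR, 17.2% held at least 1 of the words, as did 3 of the 10 genes: OAS3, MAVS and OASL. Stretches of 30 bases from GRCh38 show them with the word in capitals, at chr12:112972821-112972850 and chr12:112972932-112972961 for OAS3 (plus strand), chr20:3874950-3874979 for MAVS (plus strand) and chr12:121020648-121020677 for OASL (minus strand).
OAS3, first site: gaaagtgaagaCCAAGTCcagaactgaatc
OAS3, second site: ttattgagataCAAGTCAataccataaagc
MAVS: agggctctgctCCAAGTCAttgcttactac
OASL: gaattccaaggCCAAGTCctgcaggactgg

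The MAVS stretch shown, 1 of 3 places where its 3′ UTR holds CCAAGTC, has the 8-letter run CCAAGTCA that joins both words, which 3.56% of the 18183 genes held. MAVS has the longest annotated 3′ UTR of the 10, 9976 bases, and OAS3 has 3276. OAS3 and MAVS fell with tetracycline and OASL rose. DHX58, the other gene that fell, held neither word in 357 bases.

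In the control libraries OAS3 had the highest mean level, 48.3 ± 4.88 RPKM (SD, n = 3), followed by OAS2 at 30.8 ± 1.21 and OAS1 at 20.6 ± 0.541. These were the only neighbours in the order whose ranges stood apart. EIF2AK2, MAVS and IFIH1 followed at 18.5, 15.5 and 14.6 RPKM, then DHX58, DDX58 and OASL at 9.68, 8.72 and 5.24, and TLR3 was lowest at 3.40 RPKM. OAS3 lay at the 88.5th percentile of mean level among the genes tested and TLR3 at the 24.3rd.

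With tetracycline the order was different. OAS1 and OAS2 had the highest means, 38.0 ± 10.5 and 37.8 ± 9.53 RPKM, and OAS3 was sixth at 13.5 ± 2.68, at the 61.8th percentile. No neighbours in the Tet order had ranges that stood apart. In the Tet+EGF libraries OAS2 led at 73.6 ± 2.43 RPKM (SD, n = 2), then OAS1 at 59.9 ± 1.26 and IFIH1 at 39.1 ± 1.02, with OAS3 at 24.6 ± 0.260 and TLR3 lowest at 7.27 ± 0.223.

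**Figure D1:**
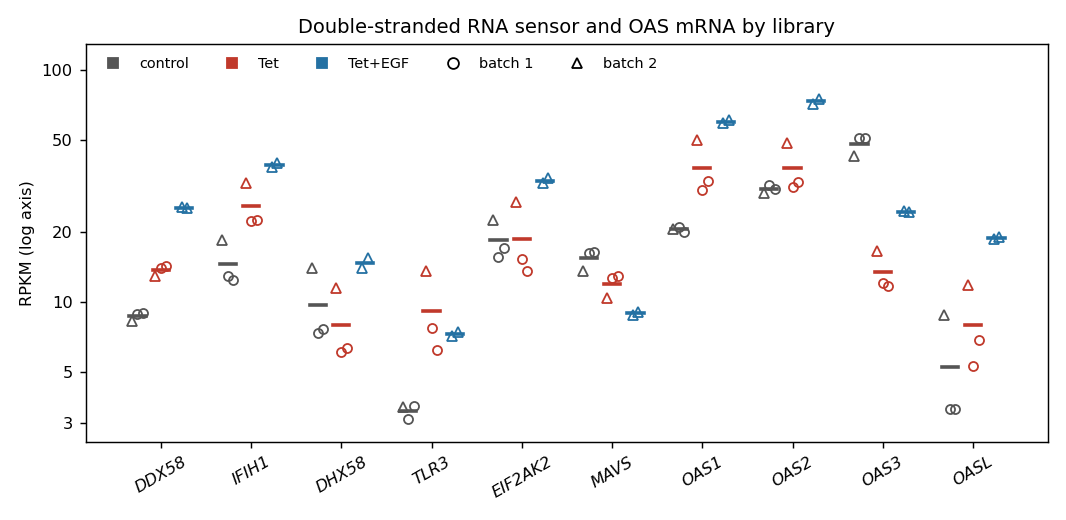
RPKM (log axis) of the 10 genes in each of the 8 libraries, coloured by group and shaped by batch. OAS3 is the highest gene in the control libraries, at 42.6 to 51.2 RPKM, and lies at 11.7 to 16.6 RPKM in the Tet libraries.

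With tetracycline 5 of the 10 genes rose (DDX58, IFIH1, TLR3, OAS1 and OASL) and 3 fell (OAS3, MAVS and DHX58) at an adjusted p of 0.05 in limma. Over all 12567 genes tested, 26.2% were called higher and 29.9% lower, so the count of genes that fell is near the share among all genes. The median log2 fold change was 0.44 over the 10 genes and -0.04 over all genes tested. Fold changes are on the log2(RPKM + 0.5) scale, which understates those of low genes, and come from 1 fit with group and batch as terms. Tet and control libraries did not overlap for 4 genes that were higher (DDX58, IFIH1, TLR3 and OAS1), against 21.9% of all genes, and for 2 that were lower (OAS3 and MAVS), against 26%. In bulk libraries, a change in the number of cells that express a gene and a change in RNA per cell cannot be told apart.

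Among the cytosolic sensors, DDX58 was at 8.28, 8.89 and 8.98 RPKM in the control libraries and at 13.0, 13.97 and 14.3 RPKM in the Tet libraries. Every Tet library was above every control library, and the spread within each group was small. DDX58 rose 1.55-fold, or by 0.63 on the log2 scale (SE 0.063, limma adjusted p = 0.000212), and the value was 0.63 in batch 1 and 0.62 in batch 2.

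IFIH1 was at 18.5, 12.9 and 12.4 RPKM in the control libraries and at 32.8, 22.4 and 22.6 RPKM in the Tet libraries. The batch 2 library, listed first, was the higher one in both groups, and the groups did not overlap. The rise was 0.81 on the log2 scale (SE 0.061, limma adjusted p = 6.72e-05), with 0.80 and 0.81 in batches 1 and 2.

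DHX58, a regulator of the other sensors, was at 14.1, 7.35 and 7.63 RPKM in the control libraries and at 11.6, 6.09 and 6.33 RPKM in the Tet libraries. The groups overlapped, because the batch 2 libraries were higher in both, but within each batch Tet was below control. DHX58 fell by 0.26 on the log2 scale (SE 0.074, limma adjusted p = 0.0209). The call was lost with the replicate number as a block (limma adjusted p = 0.381) and without control replicate 3 (0.0704) or Tet replicate 2 (0.0611). The block replaces the batch term and joins control and Tet replicate 2, of batch 1, with Tet+EGF replicate 2, of batch 2. How far that alone weakens calls was not tested. Against IFIH1 in the same library, DHX58 stood at 0.762, 0.568 and 0.615 in the control libraries and at 0.352, 0.271 and 0.281 in the Tet libraries, so the ratio was lower in every Tet library.

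TLR3, the endosomal sensor, was at 3.51, 3.13 and 3.55 RPKM in the control libraries and at 13.6, 7.75 and 6.20 RPKM in the Tet libraries. The Tet libraries were all above the controls and were far more spread than they were, with the batch 2 library highest. TLR3 had the largest rise of the 10, 1.24 on the log2 scale (SE 0.18, limma adjusted p = 0.00123), and it was 0.96 in batch 1 and 1.81 in batch 2.

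EIF2AK2, the PKR gene, was at 22.7, 15.6 and 17.2 RPKM in the control libraries and at 27.0, 15.3 and 13.6 RPKM in the Tet libraries. The groups overlapped, and no difference passed the test (log2 fold change -0.04, SE 0.11, limma adjusted p = 0.79). The sign was not stable: within batch 1 the value was -0.18 and within batch 2, from 1 library a group, 0.24, and it was 0.026 with quantile scaling. Exons of EIF2AK2 share 35 bases with GPATCH11 and 401 with a processed pseudogene, both on the opposite strand in GENCODE, and strand use in the counting is not stated, so reads from those stretches could be of either.

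MAVS, the adaptor below RIG-I and MDA5, was at 13.6, 16.3 and 16.5 RPKM in the control libraries and at 10.4, 12.7 and 13.0 RPKM in the Tet libraries. All Tet libraries were below all controls, with the narrowest gap between Tet replicate 3 and control replicate 1, which are of different batches. MAVS fell by 0.35 on the log2 scale (SE 0.064, limma adjusted p = 0.0031), with -0.34 and -0.38 in batches 1 and 2. The receptors DDX58 and IFIH1 thus rose where their adaptor fell.

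The OAS family split. OAS1 was at 20.7, 21.1 and 20.0 RPKM in the control libraries and at 50.03, 30.5 and 33.4 RPKM in the Tet libraries. The controls lay close together, all Tet libraries were above them, and the batch 2 Tet library was highest. OAS1 rose by 0.83 on the log2 scale (SE 0.13, limma adjusted p = 0.00153), by 0.62 in batch 1 and by 1.25 in batch 2. Its exons share 92 bases with an antisense gene that the table does not list under that name.

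OAS2 was at 29.7, 32.1 and 30.7 RPKM in the control libraries and at 48.7, 31.5 and 33.1 RPKM in the Tet libraries. Tet replicate 2 lay within the control range, and Tet replicate 1 was well above it. The difference did not pass the test (log2 fold change 0.26, SE 0.13, limma adjusted p = 0.134), and was 0.04 in batch 1 and 0.71 in batch 2.

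OAS3, which encodes the largest of the OAS enzymes, was at 42.6, 51.2 and 51.0 RPKM in the control libraries and at 16.6, 12.1 and 11.7 RPKM in the Tet libraries. The groups were far apart, with the lowest control at 42.6 RPKM and the highest Tet library at 16.6. OAS3 fell by 1.82 on the log2 scale (SE 0.14, limma adjusted p = 7.3e-05), to 0.284 of its control level, with values of -2.05 in batch 1 and -1.34 in batch 2. This was the largest change of the 10 genes in either direction.

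OASL, which lies elsewhere on chromosome 12, was at 8.80, 3.47 and 3.44 RPKM in the control libraries and at 11.8, 5.28 and 6.88 RPKM in the Tet libraries. The groups overlapped because the batch 2 control was high, and Tet was above control within each batch. OASL rose by 0.62 on the log2 scale (SE 0.12, limma adjusted p = 0.00371), and the call was lost with the replicate number as a block (limma adjusted p = 0.104).

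**Figure D2:**
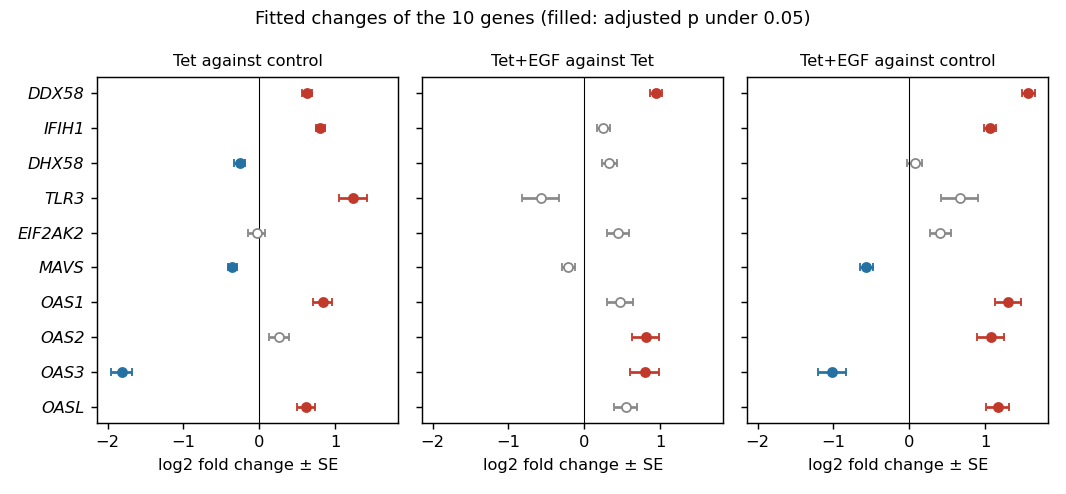
Fitted log2 fold changes of the 10 genes with their standard errors in the 3 comparisons of groups; filled points passed an adjusted p of 0.05 in limma. In the first panel OAS3 lies at -1.82 while OAS1 lies at 0.83 and TLR3 at 1.24.

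Ratios of RPKM within a library do not depend on its depth. OAS3 was at 2.06, 2.43 and 2.55 times OAS1 in the control libraries, at 0.331, 0.397 and 0.351 times in the Tet libraries and at 0.419 and 0.401 times in the Tet+EGF libraries. The control libraries were all above 2 and all 5 libraries with tetracycline were below 0.5, in both batches. OAS3 to OAS2 ran from 1.44 to 1.66 in the controls, from 0.340 to 0.385 with Tet and from 0.324 to 0.344 with Tet+EGF, so the ratio with Tet+EGF reached below the Tet range. OAS1 to OAS2 was 0.652 to 0.697 in the controls, 0.968 to 1.03 with Tet and 0.808 to 0.822 with Tet+EGF, and the 3 groups did not overlap.

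**Figure D3:**
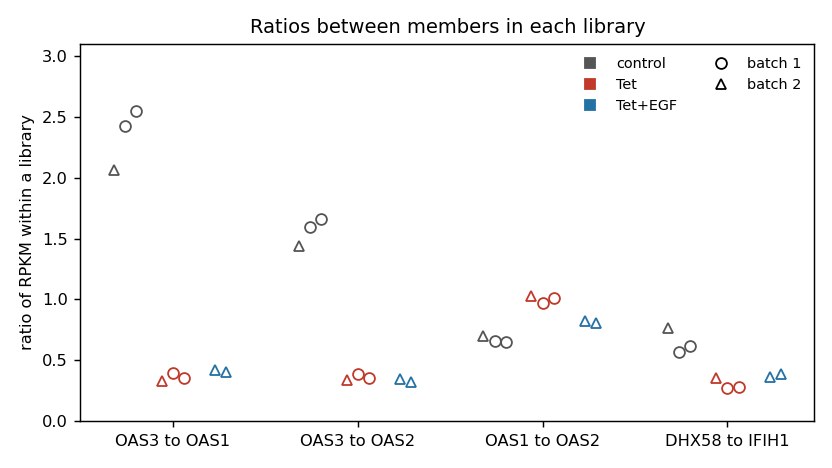
Ratio of the RPKM of one gene to that of another within each library, coloured by group and shaped by batch. The ratio of OAS3 to OAS1 is 2.06 to 2.55 in the control libraries and 0.331 to 0.419 in the 5 libraries with tetracycline.

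When EGF was added to tetracycline, 3 of the 10 genes rose against Tet alone (DDX58, OAS2 and OAS3) and 0 fell by limma; over all genes tested 9.82% were called higher and 9.15% lower. At an unadjusted p under 0.05, MAVS was the only one of the 10 that was lower. The median log2 fold change was 0.46 over the 10 genes and 0.02 over all genes tested. Both Tet+EGF libraries were above all Tet libraries for 8 of the 10 genes, against 32.2% of all genes, and below all of them for MAVS, against 20.3%. Both Tet+EGF libraries are in batch 2 and only Tet replicate 1 of the Tet libraries is, so those counts mix EGF with batch, which the fit takes as a term.

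DDX58 was at 25.7 and 25.4 RPKM in the Tet+EGF libraries, against 13.0 to 14.3 RPKM with Tet. It rose by 0.94 on the log2 scale (SE 0.083, limma adjusted p = 0.000627), and by 0.95 against the Tet library of the same batch. DDX58 thus rose with Tet and rose again with EGF, to 2.97 times its control level.

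OAS2 was at 71.9 and 75.3 RPKM in the Tet+EGF libraries and rose by 0.81 on the log2 scale against Tet (SE 0.18, limma adjusted p = 0.0206). OAS3 was at 24.8 and 24.4 RPKM and rose by 0.79 (SE 0.19, limma adjusted p = 0.0268). Against Tet replicate 1, in the same batch, the rises were 0.59 and 0.56. Both calls were lost without either Tet+EGF library, that of OAS3 also without control replicate 2 or 3 or Tet replicate 2 and with the replicate number as a block (limma adjusted p = 0.054). Without Tet replicate 1, the values were 1.26 for OAS2 and 1.27 for OAS3.

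For the other 7 genes the difference did not pass. OASL was at 18.7 and 19.04 RPKM, 0.55 above Tet on the log2 scale (limma adjusted p = 0.0503). DHX58 was at 14.01 and 15.5 RPKM (0.33, adjusted p = 0.057), and EIF2AK2 at 32.6 and 34.3 RPKM (0.45, 0.0709). IFIH1 was at 38.4 and 39.8 RPKM (0.25, 0.0736), and OAS1 at 59.1 and 60.8 RPKM (0.47, 0.11). These 5 had positive values, while TLR3, at 7.11 and 7.43 RPKM, and MAVS, at 8.82 and 9.09 RPKM, had values of -0.57 and -0.21 with limma adjusted p of 0.156 and 0.134. The TLR3 value rested on Tet replicate 1, since it was -0.86 in batch 2 alone and -0.0035 without that library.

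The comparison of Tet+EGF with control shares its control libraries with the Tet comparison and its Tet+EGF libraries with the EGF comparison. Against control, 5 genes were called higher (DDX58, IFIH1, OAS1, OAS2 and OASL) and 2 lower (OAS3 and MAVS) by limma, against 16% and 16.2% of all genes. Both Tet+EGF libraries were above all control libraries for 7 of the 10 genes, against 32.3% of all genes, and below all of them for OAS3 and MAVS, against 27.8%. The log2 fold changes were 1.57 for DDX58, 1.06 for IFIH1, 1.303 for OAS1, 1.07 for OAS2 and 1.16 for OASL, with limma adjusted p between 0.000111 and 0.00476. Without control replicate 1, the value for OAS2 was 0.63, with the call kept. OAS3 fell by 1.02 (SE 0.19, limma adjusted p = 0.007) and MAVS fell by 0.57 (SE 0.085, limma adjusted p = 0.00335). OAS3 in the Tet+EGF libraries, at 24.4 to 24.8 RPKM, lay between the Tet and the control libraries, while MAVS lay below both. DHX58, TLR3 and EIF2AK2 were at 0.07, 0.67 and 0.41 above control and did not pass (limma adjusted p = 0.606, 0.0766 and 0.064). TLR3 and EIF2AK2 were at 0.095 and 0.13 without control replicate 1, and passed at 0.95 and 0.55 without Tet replicate 1 and at 0.75 and 0.45 without Tet replicate 3.

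The Tet difference was not equal in the 2 batches for 4 of the 10 genes. A batch by Tet term passed in limma for TLR3, OAS1, OAS2 and OAS3, against 26.7% of all genes tested. For each of the 4 the value in batch 2 was the higher one on the signed log2 scale: TLR3, OAS1 and OAS2 rose more there, and OAS3 fell less. DDX58, IFIH1, DHX58 and MAVS had values within 0.04 of each other in the 2 batches. Batch 2 rests on 1 control and 1 Tet library, and the batches were named by the labels without saying what differed between them.

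**Figure D4:**
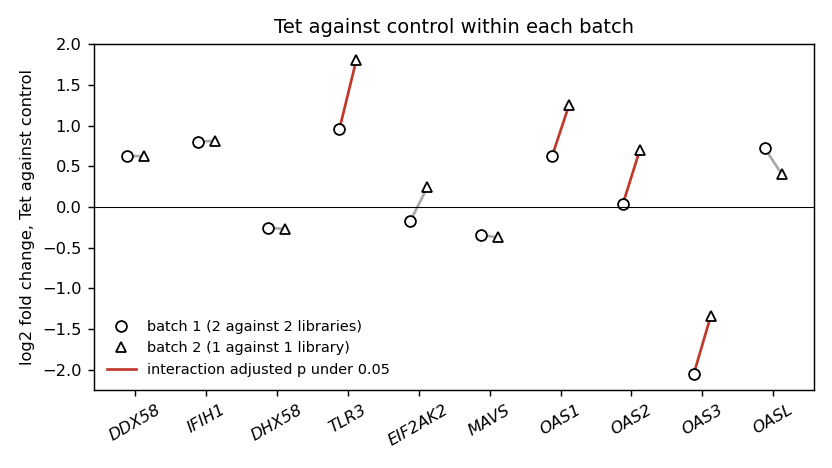
Log2 fold change of Tet against control within batch 1 (2 against 2 libraries) and batch 2 (1 against 1 library) for the 10 genes, joined by a line that is red where the batch by Tet term passed an adjusted p of 0.05. TLR3 goes from 0.96 to 1.81 and OAS3 from -2.05 to -1.34, while DDX58 stays at 0.63 and 0.62.

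Other genes of the same pathways were taken from lists, and up to 4 per list with the smallest p are named. Among adaptors and kinases below the sensors, 12 of 32 rose and 7 fell with tetracycline by limma, a median of 0.12 on the log2 scale, and with the replicate number as a block 5 rose and 3 fell. The share that rose lay above the 26.2% over all genes, and the share that fell lay below the 29.9%. With the block 18.2% of all genes were higher and 20.1% lower, and 5 and 3 of 32 are under those shares. TRIM25, the ubiquitin ligase that activates RIG-I, fell by 0.59 (SE 0.065, limma adjusted p = 0.000312). The adaptor TRADD, the kinase IKBKE and the mitochondrial protein NLRX1 rose by 0.79, 0.64 and 0.93. IRF3, the transcription factor that MAVS and TLR3 signalling activates, was looked up after values had been seen and fell by 0.59 (limma adjusted p = 0.0037), from 42.0 to 44.9 RPKM in the controls to 24.3 to 34.3 RPKM with Tet.

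Among the 17 genes around PKR and eIF2alpha, 8 fell and 1 rose with tetracycline (median -0.36), and with the block 6 fell and 1 rose. The shares over all genes were 29.9% lower and 26.2% higher, and 20.1% and 18.2% with the block. NPM1, EIF2S2 and EIF2S3, of which the last pair are subunits of eIF2, fell by 0.94, 1.01 and 0.79, and the heme-regulated eIF2alpha kinase EIF2AK1 fell by 0.77. Among 25 genes that edit, process or bind double-stranded RNA, 14 fell and 6 rose (median -0.34), and with the block 9 fell and 5 rose. The editing enzyme ADARB1 fell by 0.68, and the silencing proteins EIF2C4 (AGO4) and TNRC6A rose by 0.84 and 1.04. Of 10 genes tested in a list of other nucleic acid sensors and related genes, 4 fell and 1 rose (median -0.32). The 4 of 10 that fell are near the 29.9% over all genes. With the block 3 fell and 0 rose. IFI16 was lower by 0.61, and RNASEH2A and RNASEH2B were lower by 1.67 and 0.44. The RNASEH2 genes encode subunits of the nuclease RNase H2, as does the remaining gene that fell. IFI16 was thus the only sensor of the list called lower. TMEM173 (STING), an adaptor, was higher by 0.50. The TMEM173 value was 0.25 without control replicate 1 or Tet replicate 1.

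Genes of the interferon response moved mostly upward. Of 32 genes of a list of interferon-induced genes, 26 rose and 0 fell with tetracycline by limma, with a median of 0.78. At an unadjusted p under 0.05 the counts were 28 and 0, and with the block 22 and 0. The shares over all genes were 26.2% higher and 29.9% lower, and 18.2% and 20.1% with the block. IFI6, TRIM22, SAMD9L and RSAD2 (viperin) rose by 1.41, 1.08, 1.20 and 2.01. Among the 17 interferon receptors and JAK-STAT genes tested, 8 rose and 3 fell (median 0.34), with IRF1, SOCS1 and STAT2 up by 1.06, 1.04 and 0.85. With the block 6 rose and 2 fell. SOCS1 was at 0.192 to 0.899 RPKM in the controls, 0.973 to 2.09 RPKM with Tet and 0.821 and 0.978 RPKM with Tet+EGF. It passed the filter only through Tet libraries, so its rise is no separate support. JAK1, the kinase that interferon receptors share, was at 31.2, 22.6 and 24.1 RPKM in the control libraries, 4.43, 4.53 and 3.57 RPKM in the Tet libraries and 4.65 and 5.43 RPKM in the Tet+EGF libraries. JAK1 fell by 2.49 on the log2 scale with tetracycline (SE 0.12, limma adjusted p = 1.34e-05) and differed by 0.07 between Tet+EGF and Tet (limma adjusted p = 0.802). Its 3′ UTR of 1333 bases also holds CCAAGTCA, which 3.56% of 18183 genes held. The words joined in that run came from a scan of genes that fell with tetracycline in these same data. JAK1 fell too, so the match is no independent evidence. No other gene of these lists was looked up for the run, and a link to the fall was not tested.

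Of 10 interferon genes in the table, IFNK, which keratinocytes make, was the single one tested, with 5.30 to 15.8 RPKM in the controls, 11.4 to 13.7 RPKM with Tet and 11 to 11.2 RPKM with Tet+EGF, and no difference passed (Tet against control 0.24, limma adjusted p = 0.417). These values turned on single libraries. Without control replicate 1 the Tet value was -0.15 and that of Tet+EGF against control went from 0.61 to -0.18. When Tet replicate 1 was left out, Tet+EGF was 1.16 above Tet and passed. In batch 2 alone, with 1 control and 1 Tet library, Tet and Tet+EGF were 1.03 and 1.003 above control. IFNB1, the gene that the sensors are best known to induce, was at 0 to 0.112 RPKM in the controls and at 0 to 0.175 RPKM with tetracycline. IFNA1, IFNA2, IFNE, IFNW1 and IFNG were listed at 0 in all 8 libraries. Apart from IFNK, these genes were looked up after values had been seen.

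With EGF added, 5 of the 32 interferon-induced genes rose against Tet and 0 fell (median 0.31), and at an unadjusted p under 0.05 the counts were 13 and 1. The count that rose was 22 without Tet replicate 1, 9 without control replicate 1, 3 without control replicate 2 or 3, 2 without Tet replicate 2, 0 without either Tet+EGF library and 3 with the block. The share of all genes called higher moved too, from 9.82% to 18% without Tet replicate 1, 19.7% without control replicate 1, 3.09% and 3.05% without a Tet+EGF library and 3.4% with the block. MX1, MX2, IFI35 and PARP12 rose by 0.52, 0.99, 0.72 and 0.39, and all 4 lost the call when either Tet+EGF library was left out (limma adjusted p = 0.0923 to 0.197); without Tet replicate 1, MX2 and IFI35 were at 1.5 and 1.11. Against control, 31 of the 32 were higher in the Tet+EGF libraries and 0 lower by limma (median 1.04), and at an unadjusted p under 0.05 32 and 0. Against control 16% of all genes were called higher and 16.2% lower. In the JAK-STAT list 4 rose and 2 fell (median 0.09; 3 and 0 with the block), and those that rose included IFNAR2 at 0.78, IFNGR2 at 0.75 and IRF2 at 0.59. Of the 32 adaptors 3 rose, FADD, TRIM25 and DDX60, by 0.52, 0.35 and 0.49, and 1 fell, TRADD, by 0.56, with a list median of 0.11. Over all genes tested 9.82% were called higher and 9.15% lower, and these adaptor counts are not above those shares. Without control replicate 1 the shares over all genes were 19.7% and 14.1%, and without Tet replicate 1 they were 18% and 21.1%. With the block, or without either Tet+EGF library, 0 adaptors passed by limma, against 6 higher and 4 lower at an unadjusted p under 0.05 in the fit with batch; without control replicate 1 the counts were 10 and 4, and without Tet replicate 1 they were 6 and 8.

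In the remaining lists, 3 of 17 genes around PKR rose with EGF, EIF2B2 by 0.78, EIF2S2 by 0.55 and EIF2AK4 by 0.41. So did 3 of 25 that edit, process or bind double-stranded RNA, among them ADARB1 by 0.83 and PNPT1 by 0.67. Of the 10 in the list of other sensors and related genes 2 rose, IFI16 by 1.03 and NLRP3 by 1.81. NLRP3 was at 0.101 to 0.827 RPKM in the controls, 0.196 to 0.278 RPKM with Tet and 1.54 and 1.39 RPKM with Tet+EGF. It passed the filter only through the Tet+EGF libraries, so its call is no separate support. In these lists 0 fell by limma, also at an unadjusted p under 0.05. Over all genes tested 9.82% were called higher and 9.15% lower, so 3 of 25 is near the share over all genes. With the block 2, 1 and 2 rose in the same order of lists, where 3.4% of all genes were called higher. The medians were 0.14, 0.19 and 0.13 on the log2 scale. Without Tet replicate 1 the counts that rose were 4, 11 and 4, and 5 genes around PKR fell. Over all genes 18% were called higher and 21.1% lower in that setting, so the counts around PKR are near those shares. Among genes named here for EGF outside the 10, IFNAR2, IFNGR2, EIF2B2, ADARB1 and IFI16 kept the call with each library left out in turn. NLRP3 kept it in the 6 of these settings where it passed the filter. When either Tet+EGF library was left out it did not pass the filter, so it was not tested there. Each of the others lost the call without at least 1 of the Tet+EGF libraries.

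**Figure D5:**
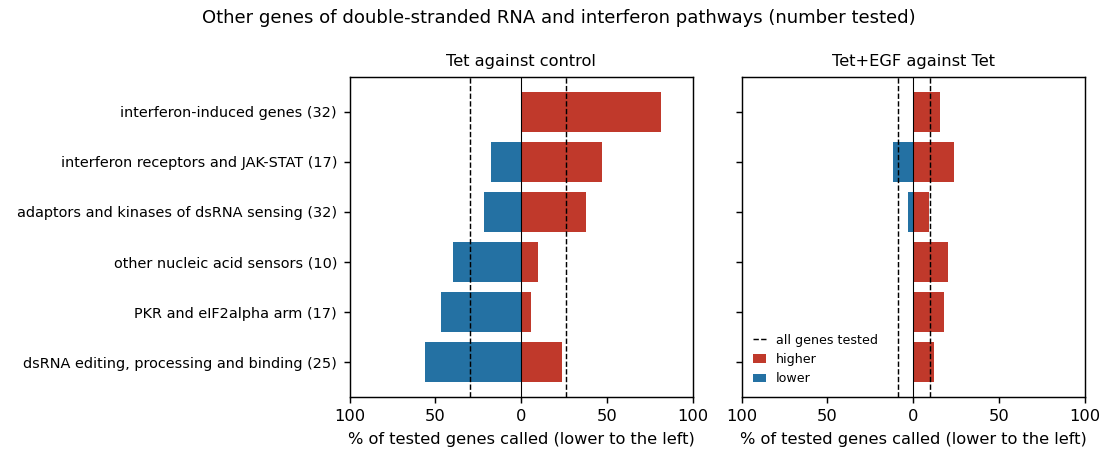
Percent of the tested genes of each list that were called higher (right) or lower (left) by limma with Tet against control and with Tet+EGF against Tet; dashed lines give the percent over all genes tested. Of the 32 interferon-induced genes 26 are higher with Tet, and of the 25 genes that edit, process or bind double-stranded RNA 14 are lower.

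The genes whose levels over the 8 libraries were most like those of IFIH1 were LHFP, BRWD3 and ISG15, with Pearson r of 0.996, 0.994 and 0.993 on the log2(RPKM + 0.5) scale. For OAS3 they were SPCS3, LPIN2 and GALNT10, with r of 0.995, 0.995 and 0.994. The 8 libraries share 3 groups and 2 batches, so these values describe a shared pattern over few points. ISG15, an interferon-induced ubiquitin-like protein, ran from 97.3 to 179 RPKM in the controls, from 207 to 335 RPKM with Tet and from 451 to 481 RPKM with Tet+EGF.

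Markers of other cell types were looked up in the same libraries. Of 10 leukocyte markers 8 were under 1 RPKM in every library and 2 of them, CLEC4C and HLA-DRA, were at 0 throughout; the sum, nearly all of it CD68 and LCP1, ran from 47.6 to 59.1 RPKM in the controls, 29.9 to 41.8 RPKM with Tet and 109 RPKM with Tet+EGF. Of 10 fibroblast markers 7 were under 1 RPKM, with sums of 3.19 to 4.61, 17.3 to 20.7 and 4.18 to 4.68 RPKM in the same order. Most of the Tet sum was COL1A1, at 7.50 to 8.82 RPKM, and DCN, at 7.04 to 9.01 RPKM. They rose by 2.07 and 3.96 on the log2 scale with Tet by limma, and FBLN1 did not pass. DCN was at 0 to 0.080 RPKM in the controls and passed the filter only through the Tet libraries. Of 6 endothelial markers 4 were under 1 RPKM, with sums of 9.43 to 10.4, 5.87 to 10.7 and 8.12 to 8.36 RPKM, PECAM1 was at 0 throughout, and all 5 melanocyte markers in the table were under 1 RPKM. Keratinocyte markers summed to 20000 to 23120 RPKM in the controls, 28350 to 33110 RPKM with Tet and 16660 to 17110 RPKM with Tet+EGF, where KRT5 and KRT14 made up most of the sum. With Tet 6 of these 9 markers rose and 3 fell by limma, ITGA6 by 1.78, ITGB4 by 1.00 and TP63 by 0.33 on the log2 scale, and of the endothelial markers KDR rose by 2.29 and ENG fell by 1.09. The part of these markers in the changes of the 10 genes was not tested. Depth relative to control replicate 1, read from the steps between low RPKM values, ran from 63.4% to 111%.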

How the data were processed

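Complementary DNA of polyadenylated RNA was sequenced for 8 libraries, each in its own lane of a Genome Analyzer IIx, per the labels' protocols. The authors deposited 1 table of RPKM values, 1 column per library; TopHat 1.3.3 is named in the submitters' processing notes. The sources used here name no counting tool, genome build, annotation, use of strand or treatment of reads that match several genes, and total counts per library are unknown.

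A gene was kept if 2 or more libraries had an RPKM of 1 or more (12567 of 21510 genes). The 8 libraries were fitted together in limma 3.58.1 (R 4.3.3) on log2(RPKM + 0.5), with terms for group and batch and eBayes moderation with a trend; a batch by Tet term was fitted likewise. Tests are two-sided, and p-values were adjusted by Benjamini-Hochberg over all genes kept, at a threshold of 0.05. The fit was tested on simulated data.

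The 10 genes, the lists, the tests and the alternatives were chosen with earlier results of these data known. All 10 genes are named, with up to 4 members per list with the smallest p and, for IFIH1 and OAS3, the 3 genes with the highest correlation; some genes that this rule names, and 1 list, are not reported here. IRF3, the interferons other than IFNK and the marker lists' values fall outside this rule, and were chosen after their values were seen.

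Control and Tet libraries with the same replicate number deviated together from their group means (r across genes of 0.476, 0.314 and 0.338), and the number was therefore fitted as a block in an alternative. That fit has no batch term, and its block for number 2 holds libraries of both batches. Numbers 2 and 3 are both in batch 1 and also correlated across numbers (0.334 and 0.272). For Tet+EGF the same-numbered pairs gave -0.31 and -0.263 with control and -0.137 and -0.155 with Tet. Alternatives were other pseudocounts, filters, scalings and terms, single batches, and each library left out.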

Additional observations from a re-analysis of the deposited data

Results flagged for a closer look

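For 4 genes the log2 fold change of Tet against control differed between the batches by a test of the difference itself, the batch by Tet term in limma. Batch 2 minus batch 1 was 0.86 for TLR3 (SE 0.20, limma adjusted p = 0.0229), 0.63 for OAS1 (SE 0.11, limma adjusted p = 0.00924), 0.67 for OAS2 (SE 0.10, limma adjusted p = 0.00514) and 0.72 for OAS3 (SE 0.093, limma adjusted p = 0.00328). Of all genes tested 26.7% passed that term. EIF2AK2 had a difference of 0.42 that did not pass (limma adjusted p = 0.0668), and OASL one of -0.32 (0.282). In batch 2 each group of this contrast is 1 library, so the difference cannot be told apart from a difference between single libraries. The TLR3 call was lost without Tet+EGF replicate 2 (limma adjusted p = 0.0503) and with no filter on low values (0.113).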

How the results depend on the processing

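DDX58, IFIH1, TLR3, OAS1 and OAS3 kept their direction and passed for Tet against control under all 21 alternatives. Over the 10 genes, 197 of the gene-level alternatives of that comparison kept side and direction, and 8 lost the call. OAS2 in batch 2 alone was the 1 that gained it with its sign kept. The 4 that changed sign were all of EIF2AK2: 0.026 with quantile scaling, 0.24 in batch 2 alone and -0.18 to 0.050 when single libraries were left out. Batch 2 alone has 1 control and 1 Tet library, and its residual spread comes from the 2 Tet+EGF libraries only. No p-value of that setting is therefore given. Without a batch term 1 gene was called lower (OAS3), as DHX58 and MAVS lost their calls (limma adjusted p = 0.536 and 0.0596). OASL lost its call as higher there (limma adjusted p = 0.243). DHX58 was also lost with quantile scaling (0.053). The median of the 10 for Tet against control was 0.33 in batch 1 alone and 0.33 to 0.49 with single libraries left out. For Tet+EGF against Tet, 7 genes were called higher and 1 lower with only the groups compared, where 19.6% of all genes were called higher, against 9.82%. Batch 2 alone has 1 Tet library, so its calls are not given for this comparison. In that comparison 1 was lower without a filter. Leaving out single libraries gave 1 to 8 higher (8 without control replicate 1, where 19.7% of all genes were, 5 without Tet replicate 1, 1 without either Tet+EGF library) and 0 to 1 lower. The median of that comparison was 0.32 in batch 2 alone and with only the groups compared, 0.87 with no batch term, 0.77 with the replicate block and 0.32 to 0.53 with single libraries left out. For Tet+EGF against control it was 1.00 in batch 2 alone and with only the groups compared, 1.12 with no batch term, 1.05 with the block and 0.38 to 1.00 with single libraries left out; TLR3 was called there in 5 of 20 alternatives (0.095 to 0.997) and EIF2AK2 in 4 of 20 (0.13 to 0.86). The block for Tet+EGF leaves out batch; of the member calls it changed only DHX58, OASL and OAS3, as given above. Over all genes it called 427 higher and 422 lower for Tet+EGF against Tet, where the batch fit called 1234 and 1150. Without a filter OAS2 and OAS3 lost their Tet+EGF against Tet calls (0.0775 and 0.0923). The causes were not tested. Of 998 alternatives for 49 results on list genes, 79 lost the call and 0 changed sign. With 2 Tet+EGF libraries, leaving 1 out assumes that the other varies like the remaining groups, and without control or Tet replicate 1 the batch term rests on the other of these.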
